A study of Mus musculus with 7 samples.

Results

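The 7 genes described here are long noncoding RNAs (lncRNAs) that stay in the nucleus or carry small nucleolar RNAs (snoRNAs) in their introns: Malat1 and Neat1, and the snoRNA hosts Gas5, Snhg1, Snhg3, Snhg5 and Snhg12. They were chosen by name, with earlier results of these data known. All 7 were found among the 55487 genes of the count table and passed the filter that left 10311 genes for testing. GFI1+ IAHC cells, CD31+cKIT+ cells with an active Gfi1 reporter from the blood-forming clusters inside the aorta, were sorted at E11.5 from the aorta-gonad-mesonephros region of mice of the strain given as CD1/Gf1+. All cells spent a night in compE, which blocks γ-secretase and with it the cleavage that activates Notch receptors, so the controls had been exposed to it too. After a wash, sets of 300 to 400 cells stayed for 4 h in methylcellulose with growth factors and ethynyl uridine (EU), which enters newly made RNA and allows its capture. They received DMSO (the washout, 3 libraries), compE again (2 libraries) or recombinant Fc-JAG1, a Notch ligand (2 libraries), so that Notch signaling could be compared when released, held off or offered a ligand. The doses in the labels are 10 mM compE and 4 mg/ml Fc-JAG1. Micromolar and microgram units are used for them elsewhere in the sources. A number shared by libraries marks cells of one sample split between treatments. The authors excluded Fc-JAG1 2 because too few of its reads aligned uniquely, so it was not analysed here. There was no compE 3 among the libraries.

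Malat1 is a long RNA of nuclear speckles, the stores of splicing factors, and Neat1 is the scaffold on which paraspeckles form. Malat1 and the long isoform of Neat1 end without an ordinary poly(A) tail, in a genome-encoded stretch of A that folds back on upstream U, whereas the short Neat1 isoform has a tail, and a count of the gene covers both isoforms. In the host genes the spliced lncRNA is a by-product in part, since the introns release snoRNAs, which guide methylation or pseudouridylation of ribosomal RNA. Transcripts of Gas5 and several other hosts start in a run of pyrimidines, as ribosomal protein mRNAs do, and are lost quickly by nonsense-mediated decay when ribosomes engage them. Labelled RNA reports synthesis over hours, and in bulk libraries of this kind fewer cells making a transcript and less of it per cell cannot be told apart.

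What a count of these genes holds depends on how reads were assigned. Of the 12827 annotated genes that lie wholly within the span of others, 4 had any count (0.0312%), against 25216 of 42400 others (59.5%). Reads over bases that belong to more than one gene therefore went uncounted, and reads in introns of a gene were counted for it. The 27 snoRNA genes annotated inside the hosts, 10 in Gas5, 8 in Snhg1, 5 in Snhg12, 2 in Snhg3 and 2 in Snhg5, had 0 counts in every library, as did the other genes that lie inside Malat1, Neat1 and Snhg3. These zeros say nothing of whether the snoRNAs were made.

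**Figure D1:**
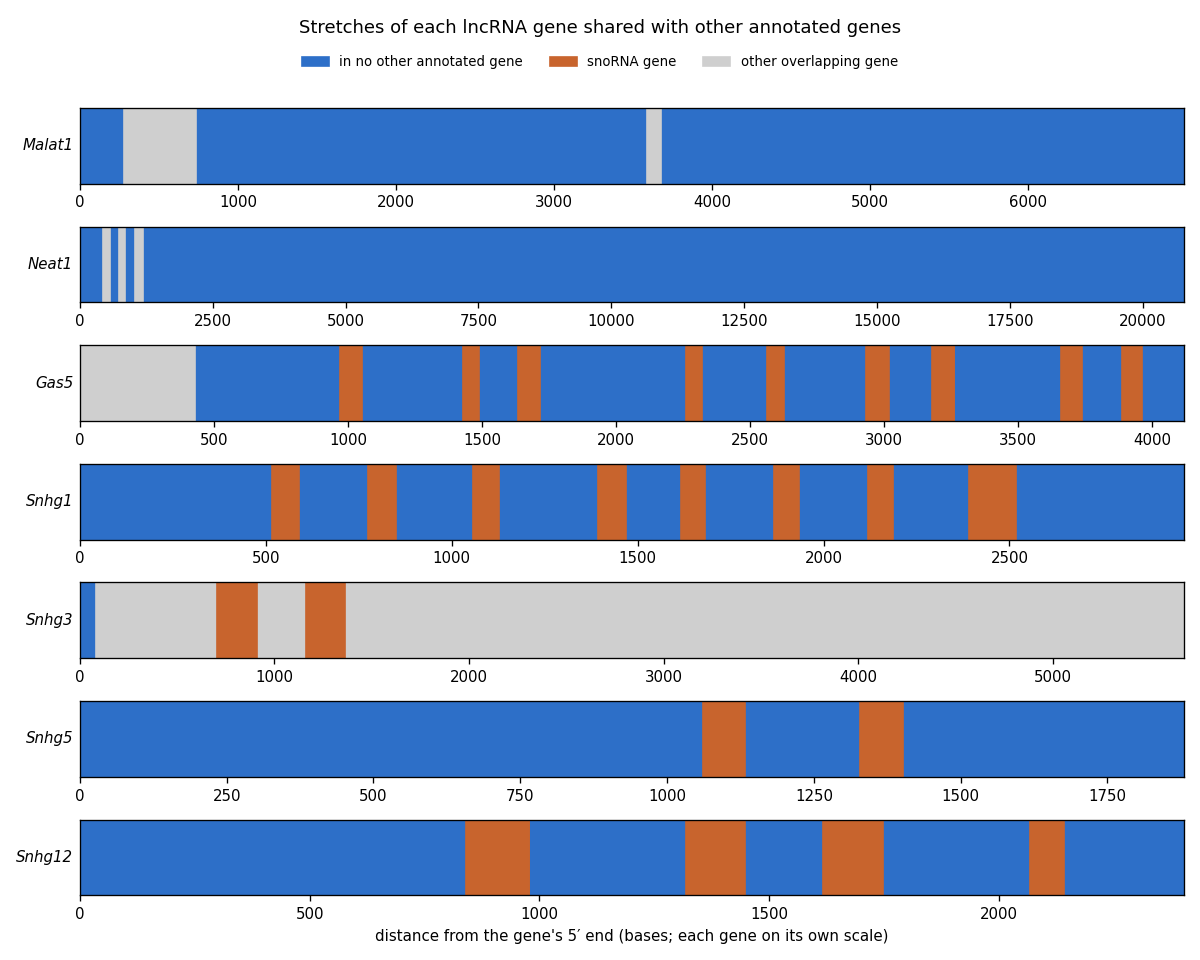
Bases of each lncRNA gene that it shares with other annotated genes. The x axis is the distance from the gene's 5′ end in bases, each gene on its own scale; blue marks bases in no other gene, orange snoRNA genes and grey other overlapping genes. Snhg3 has 81 bases of its own, and the other 6 genes keep most of their span.

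Malat1 lies at chr19:5795690-5802672 on the minus strand of GRCm38, and 6444 of its 6983 bases overlap no other gene. Neat1 lies 22035 bases away at chr19:5824708-5845478, also on the minus strand, with 20387 of 20771 bases of its own. Gas5 (chr1:161034422-161038539, plus strand) has 3021 of 4118, the first 428 being shared with Zbtb37 on the other strand. Snhg1 (chr19:8723475-8726443, plus strand) has 2347 of 2969, Snhg5 (chr9:88521050-88522929, minus strand) 1736 of 1880 and Snhg12 (chr4:132308623-132311024, plus strand) 1932 of 2402. Snhg3 (chr4:132348014-132353686, minus strand) shares 5592 of its 5673 bases with Rcc1, the exchange factor of the GTPase Ran, which is transcribed in the same direction. By the annotation used here, every count of Snhg3 therefore came from its first 81 bases, which are shown because the whole Snhg3 measurement rests on them. They span chr4:132353606-132353686 on the minus strand, with runs of at least 5 C or T in capitals.
Snhg3: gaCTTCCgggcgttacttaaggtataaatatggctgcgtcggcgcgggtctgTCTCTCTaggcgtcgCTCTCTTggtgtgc

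The starts of the other hosts are shown for the pyrimidine runs by which such genes are known. Each stretch holds 20 bases before and 40 from the start that RefSeq gives on GRCm38.p6, on the gene's strand, and capitals again mark runs of at least 5 C or T. The stretches lie at chr1:161035146-161035205 (Gas5, the second of its starts in RefSeq), chr19:8723467-8723526 (Snhg1), chr9:88522858-88522917 (Snhg5) and chr4:132308658-132308717 (Snhg12).
Gas5: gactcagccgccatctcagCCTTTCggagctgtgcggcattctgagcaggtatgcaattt
Snhg1: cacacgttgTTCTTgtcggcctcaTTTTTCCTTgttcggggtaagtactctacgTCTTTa
Snhg5: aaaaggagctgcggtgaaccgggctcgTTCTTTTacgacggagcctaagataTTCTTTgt
Snhg12: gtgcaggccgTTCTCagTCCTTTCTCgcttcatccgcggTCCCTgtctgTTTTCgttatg
All 5 hosts had such a run between 10 bases before and 40 after a start, with a longest run of 5 to 9 bases, but Gas5 only at the second of its starts, and the first had none. Malat1 had none there. A run in that window is common, since 63% of 32851 promoters in RefSeq hold one. Within 4 bases before to 8 after the start it was found for Gas5, Snhg3 and Snhg12, and in 17.8% of all promoters.

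Some of the uncounted snoRNAs are shown to make plain what the host counts leave out. TGATGA and CTGA, the C and D boxes that bind the proteins of methylation-guiding snoRNAs, are in capitals. Snord47 lies in Gas5 at chr1:161038082-161038158, Snord50a and Snord50b in Snhg5 at chr9:88521529-88521600 and chr9:88521797-88521868, and Snord99 in Snhg12 at chr4:132310691-132310764. Each is on the strand of its host.
Snord47: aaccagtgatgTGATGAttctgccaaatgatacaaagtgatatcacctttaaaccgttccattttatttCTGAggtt
Snord50a: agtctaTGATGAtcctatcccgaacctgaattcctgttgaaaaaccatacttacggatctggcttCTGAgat
Snord50b: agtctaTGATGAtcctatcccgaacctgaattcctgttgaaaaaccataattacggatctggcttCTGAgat
Snord99: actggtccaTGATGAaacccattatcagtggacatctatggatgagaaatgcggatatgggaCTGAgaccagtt
Searched on the sense strand, 17 of the 27 snoRNA transcripts inside the hosts held both words (63%), against 380 of all 1507 annotated snoRNA transcripts (25.2%). The short CTGA alone was in 79.5% of all snoRNA transcripts, so it carries little information by itself. Snhg12 also holds Snora16a, Snora44 and Snora61 and Snhg3 holds Snora73a and Snora73b, which belong to the pseudouridylation guides.

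The ends of Malat1 and of the long Neat1 isoform are shown because the labels give the molecule as polyA RNA, while these long RNAs end in A that the genome encodes. The stretches are the 60 bases up to the letters GCAAAA at chr19:5795982-5796041 and chr19:5824708-5824767, both on the minus strand, with runs of at least 5 A or 5 T in capitals.
Malat1: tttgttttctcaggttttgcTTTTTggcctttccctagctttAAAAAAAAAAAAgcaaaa
Neat1: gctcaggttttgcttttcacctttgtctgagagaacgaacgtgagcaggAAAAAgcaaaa
The run of A before that end was 12 bases in Malat1 and 5 in Neat1. Searched on the sense strand, AAAAAGCAAAA was in 73 of 30258 long noncoding transcripts (0.241%). How the ends of both RNAs fared in cDNA synthesis was not tested.

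Together the 7 lncRNAs took 0.195 to 0.373% of a library's counts. The libraries held 21652927 to 33974693 counts in all, and between 6265 and 12351 genes reached 10 counts in one. Small sets of cells were amplified without molecular identifiers, so a count is a read and not a molecule, and errors from counting alone would be far too small. In the 3 libraries with 11600 to 12351 such genes (washout 2, compE 2 and Fc-JAG1 1) and in the 4 with 6265 to 8096, the levels of all 7 lncRNAs overlapped. Of the markers of the sorted cells, Runx1 ran from 16525 to 51298 counts and Kit from 6381 to 19331, whereas Gfi1 was at 0 in washout 1, both compE libraries and Fc-JAG1 3. Pecam1, which encodes the CD31 of the sort, had 18 counts in washout 1 and 11 in Fc-JAG1 3 and 1186 to 6314 in the others. Ptprc had 3 counts in washout 3, and the endothelial gene Cdh5 had 139 in washout 1 and at most 3 in the others. Summed levels of mesenchymal, neural and epithelial markers stayed at or under 17.7 CPM (counts per 1000000, after scaling) in every library, with Col3a1 and Krt18 among those at 0 in whole groups. Tubb3 and Sox2 of the neural list and Alas2 of the erythroid list were at 0 everywhere but have 0 bases outside other genes, so their zeros say nothing. Macrophage markers summed to 281 to 524 CPM in the washout, 58.8 to 361 with compE and 452 to 501 with Fc-JAG1, and erythroid markers to 25.2 to 445, 25 to 142 and 92.4 to 129. Of these lists, 5 of 9 macrophage and 4 of 9 erythroid genes were tested, C1qa, C1qb, Hbb-y and Hba-x were among those at 0 in whole groups, and their part in the results below was not tested.

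Gas5, the growth arrest-specific host of methylation-guiding snoRNAs, had the most counts of the 7 in 5 of 7 libraries and stood 31st of 10311 genes by mean level. In CPM after TMM scaling, which takes most genes to be alike between libraries, it was at 1003, 761 and 897 in washout 1, 2 and 3, at 1626 and 1098 in compE 1 and 2 and at 591 and 1550 in Fc-JAG1 1 and 3. Both compE libraries were above the 3 of the washout, and those of Fc-JAG1 lay on either side of them. The range was 17275 to 42531 in raw counts and 13.38 to 15.32 in the authors' log2 values.

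Malat1 ranked 66th and was at 700, 380 and 720 CPM in the washout, at 572 and 659 with compE and at 639 and 1745 with Fc-JAG1. Fc-JAG1 3 stood far above the other 6 libraries, which lay within 2-fold of each other. Malat1 counts were below those of Gas5 in the 5 libraries of the washout and compE, at 0.352 to 0.802 of them, and just above in Fc-JAG1 1 and 3 (1.08 and 1.13).

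Snhg1 was at 587, 332 and 156 CPM in the washout, 537 and 357 with compE and 401 and 551 with Fc-JAG1. The lowest and the highest of these 7 values are both washout libraries. Snhg5, whose introns hold Snord50a and Snord50b, was at 248, 218 and 365 CPM in the washout, 1044 and 354 with compE and 269 and 216 with Fc-JAG1. CompE 1 stood apart with 26400 raw counts, and the other 6 libraries had between 4279 and 13699.

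Snhg12, host of the pseudouridylation guides named above, was at 71.2, 88 and 39.8 CPM in the washout, 283 and 65.4 with compE and 104 and 12.7 with Fc-JAG1. Its highest library was again compE 1, and its lowest Fc-JAG1 3, with 299 counts. Snhg3, over its 81 bases, was at 19.9, 43.2 and 26.4 CPM in the washout, 62.6 and 28.4 with compE and 40.4 and 41.2 with Fc-JAG1. Here too the groups overlapped, and the 2 Fc-JAG1 libraries were nearly equal.

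Neat1 was the exception among the 7. It had 6385, 2366 and 0 counts in washout 1, 2 and 3, 1665 and 1940 in the compE libraries and 1403 and 94 in those of Fc-JAG1, or 371, 65.6 and 0, then 65.8 and 50.1, then 38.5 and 3.98 CPM. The washout thus held both the highest value and the only 0. In that library 3 counts would be 0.107 CPM, but with amplified reads a count of 0 sets no such limit on the level. In the authors' log2 values washout 3 is at 6.51, the lowest value in their table, and the other libraries run from 10.72 to 13.45.

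**Figure D2:**
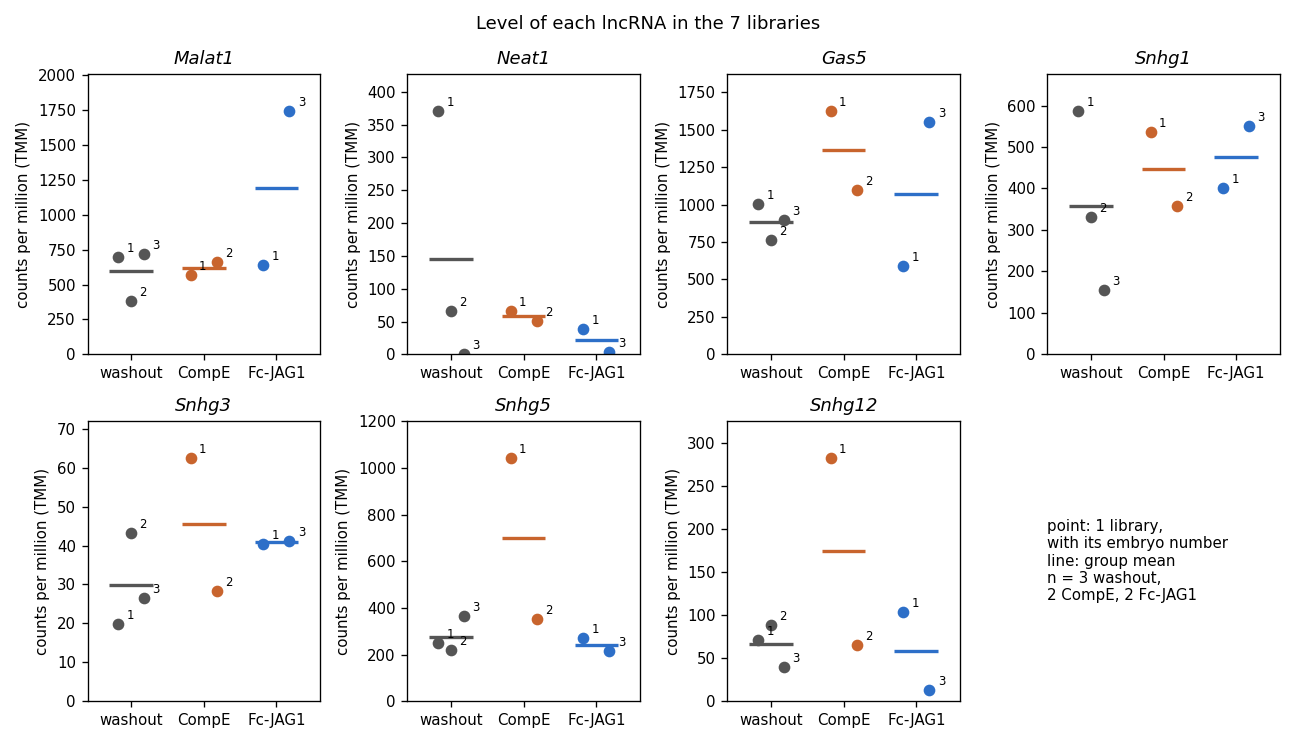
Level of each lncRNA in each library. The y axes give CPM after TMM scaling, from 0 and different for each gene; points are libraries with their sample number, and lines are group means of 3 washout, 2 compE and 2 Fc-JAG1 libraries. Malat1 in Fc-JAG1 3, Snhg5 and Snhg12 in compE 1 and Neat1 in washout 1 lie far from the rest.

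Levels of different genes can be compared only per length, and the order depended on which length was used. Per kilobase of the gene's own bases the medians over the libraries were 499 CPM for Snhg3, 332 for Gas5, 171 for Snhg1, 155 for Snhg5, 102 for Malat1, 36.9 for Snhg12 and 2.46 for Neat1. Per kilobase of the whole span, Gas5 came first with 244 and Snhg3 fell to 7.13. The ranges of all neighbours in the first order overlapped: Gas5 was above Snhg1 in 7 of 7 libraries and Snhg12 above Neat1 in 7 of 7, but Snhg3 was above Gas5 in 4 and Snhg1 above Snhg5 in 4. Malat1, known as one of the most plentiful RNAs of the nucleus, was below Snhg5 per kilobase of own bases in 6 of 7 libraries of this labelled RNA. Whether both genes were captured and copied alike was not tested, so this gives no order of their synthesis.

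Most of the 7 varied less than the median tested gene, which is not particular to them. The difference between the highest and the lowest library was 1.46 on the log2 scale for Gas5, 1.65 for Snhg3, 1.92 for Snhg1, 2.20 for Malat1, 2.27 for Snhg5, 4.47 for Snhg12 and 12.41 for Neat1, with a median of 8.89 over all tested genes. For Gas5 that is 2.75-fold, for Malat1 4.59-fold and for Snhg12 22.3-fold. Among tested genes, 1.98% had a smaller range than Gas5, 6.91% a smaller one than Malat1 and 96.2% a smaller one than Neat1. Level is part of this, because a gene that drops out of a library has a wide range: 6 of the 7 had at least 10 counts in every library, as did 29.4% of tested genes and 61.7% of the 3997 whose mean level lay within that of the 7. Among the 3035 genes with 10 counts everywhere, whose median range was 3.75, 6.39% were steadier than Gas5 and 9.82% than Snhg3. The shares were 14.9% for Snhg1, 21.2% for Malat1, 22.8% for Snhg5 and 59.9% for Snhg12. Lists of other genes had ranges like the 7, whose median was 2.20. The medians were 2.03 for protein-coding snoRNA hosts, 2.30 for nuclear speckle proteins and 2.50 for paraspeckle proteins.

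**Figure D3:**
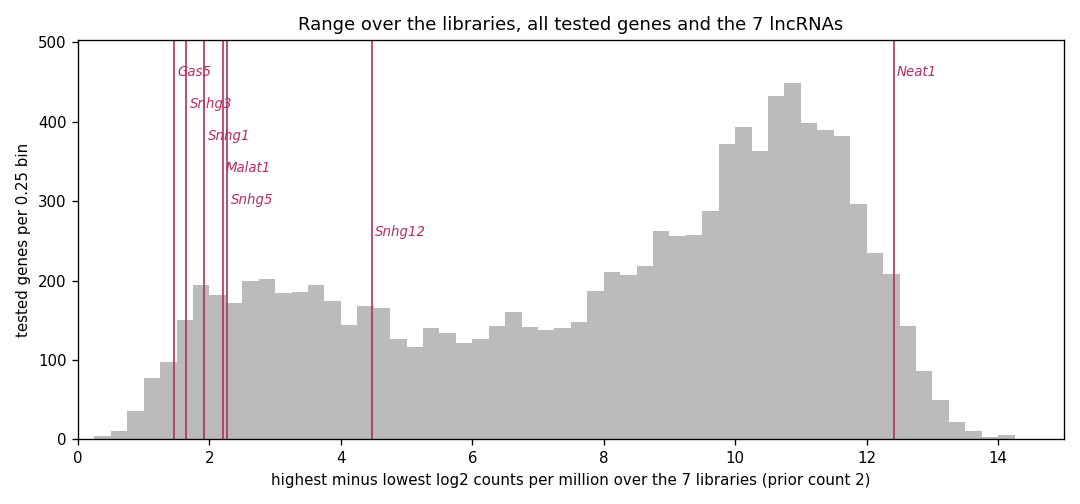
Range over the 7 libraries of every tested gene, with the 7 lncRNAs as red lines. The x axis is the highest minus the lowest log2 CPM, computed with a prior count of 2, and the y axis counts genes per bin. Gas5, Snhg3, Snhg1, Malat1 and Snhg5 lie between 1.46 and 2.27, Snhg12 at 4.47 and Neat1 at 12.41, and the median of 10311 genes is 8.89.

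With Fc-JAG1, none of the 7 lncRNAs passed the test against the washout. The edgeR quasi-likelihood fit, with the sample number as a block, gave log2 fold changes of 0.65 (SE 0.71) for Malat1, 0.61 (1.24) for Snhg1, 0.50 (3.81) for Snhg3, -0.04 (0.57) for Gas5, -0.51 (1.19) for Snhg5 and -0.92 (3.23) for Snhg12, each with an adjusted p of 1.00. The median over all tested genes was 0.76 in this fit, 0.41 with DESeq2's size factors, 0.99 with total counts and -0.16 without the block. A value near it does not set a gene apart from the rest. With SEs of this size it does not show that the gene was unchanged either. In the blocked fits 1 of the 7, Neat1, was above that median, and without the block 4 of the 7 were. In edgeR 0% of the 10311 genes were called (400 had an unadjusted p under 0.05, none of the 7), and in DESeq2, the study's tool, 20.4% were called and 0 of the 7.

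For Neat1 the fits with and without the block went opposite ways. Its fitted log2 fold change with Fc-JAG1 was 2.39 (SE 10.47, edgeR adjusted p = 1.00), although the mean was 21.2 CPM (SD 24.4, n = 2) against 145 in the washout (SD 198, n = 3). Within sample 1 the log2 CPM with Fc-JAG1 minus that of the washout was -3.26, and within sample 3 it was 5.89, against a library at 0. Without the block the fitted value was -2.77, so no direction can be given for Neat1.

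Of the other 6, Snhg3 differed the same way in both samples (1.02 in sample 1 and 0.64 in sample 3, Fc-JAG1 minus washout in log2 CPM), and the rest went different ways. Within sample 1, Gas5 differed by -0.76 and Malat1 by -0.13 (Fc-JAG1 minus washout, log2 CPM), with a median of 1.50 over all tested genes. Within sample 3, Gas5 differed by 0.79 and Malat1 by 1.28, with a median of 0.00. Snhg1 differed by -0.55 and 1.82, and Snhg5 and Snhg12, the other way round, by 0.11 and 0.55 in sample 1 and by -0.76 and -1.65 in sample 3. In CPM 0 of the 7 had groups that did not overlap, with 17.3% of all tested genes doing so. As a share of total counts Malat1 did not overlap, at 0.0712 and 0.156% with Fc-JAG1 and 0.0456 to 0.0637% in the washout, where 16.7% of tested genes were apart.

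With compE kept on, 6 of the 7 were fitted above the washout and none passed the test. Gas5 had a log2 fold change of 0.81 (SE 0.52) and means of 1362 CPM (SD 374, n = 2) against 887 (SD 121, n = 3), with both paired differences in the same direction (0.70 and 0.53). Snhg5 had 1.30 (SE 1.17), with paired differences of 2.07 in sample 1 and 0.70 in sample 2. The others were Snhg3 at 0.58 (SE 3.75), Snhg12 at 0.47 (3.18), Malat1 at 0.37 (0.69), Snhg1 at 0.24 (1.08) and Neat1 at -1.02 (3.49). The edgeR adjusted p was 1.00 for each, the unadjusted p lowest for Gas5 at 0.14 (edgeR), and the median over all tested genes was -0.14.

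For 6 of the 7, all but Malat1, compE 1 was the higher of the compE libraries. In that library the 5 hosts together took 0.316% of counts, and 0.132 to 0.217% in the other 6. Snhg12 differed by 1.99 within sample 1 and by -0.43 within sample 2, and Snhg3 by 1.65 and -0.61. Malat1 differed by -0.29 and 0.79 and Snhg1 by -0.13 and 0.11, so each of these genes went different ways in the samples. Gas5 was the 1 of 7 whose groups did not overlap in CPM, with 17.7% of all tested genes apart. As a share of total counts Snhg5 was apart too, which makes 2 of 7 against 17.2%. edgeR called 0% of genes (178 with an unadjusted p under 0.05, none of the 7), and DESeq2 called 9.33% and 0 of the 7, with Snhg5 lowest at an adjusted p of 0.312 in DESeq2.

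**Figure D4:**
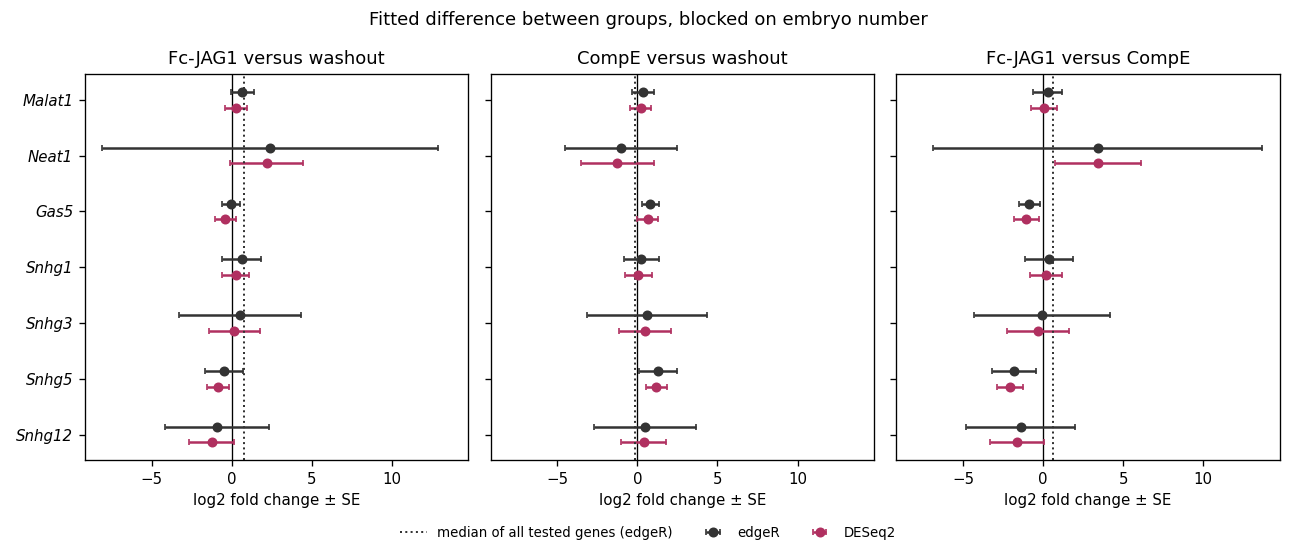
Fitted log2 fold change of each lncRNA in the 3 comparisons, with sample number as a block. The x axis is the log2 fold change, bars are ± 1 SE, black is edgeR and red DESeq2, and the dotted line is the median of all tested genes in edgeR (0.76, -0.14 and 0.65). The bars of Neat1 reach 10.47 in SE, and Gas5 and Snhg5 have the values farthest from 0 relative to their bars in the comparisons with compE.

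Between the 2 treatments, Snhg5 came closest to a call. Sample 1 is the only one that was given both treatments, and the washout libraries enter this comparison through the block. Snhg5 was at 269 and 216 CPM with Fc-JAG1 and at 1044 and 354 with compE, without overlap. Its log2 fold change was -1.81 (SE 1.36, edgeR adjusted p = 1.00) and in DESeq2 -2.05 (SE 0.81, adjusted p = 0.0747). Gas5 had -0.85 (SE 0.68, edgeR adjusted p = 1.00) and overlapped. Neat1 did not overlap in CPM, at 38.5 and 3.98 against 65.8 and 50.1, yet its blocked fit gave 3.41 (SE 10.28), and the fit without the block -1.45. The remaining log2 fold changes were 0.37 (SE 1.47) for Snhg1, 0.28 (0.88) for Malat1, -0.08 (4.24) for Snhg3 and -1.39 (3.39) for Snhg12. Thus 2 of 7 were apart where 30.4% of tested genes were (30.2% on shares of total counts, with the same 2 of 7), edgeR called 0% of genes (190 with an unadjusted p under 0.05, none of the 7), and DESeq2 called 11.4% and 0 of the 7.

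Which library was left out decided some calls of DESeq2, and none of edgeR for these genes. Snhg5 was called lower with Fc-JAG1 than with compE in 4 of 7 such DESeq2 fits: without washout 1 (adjusted p = 0.00141), washout 2 (0.0157), washout 3 (0.0288) or Fc-JAG1 3 (0.0369). Its log2 fold change stayed between -2.52 and -1.33 over the 7 fits. Gas5 was called lower with Fc-JAG1 than in the washout without washout 3 (log2 fold change -1.49, DESeq2 adjusted p = 0.00839) or Fc-JAG1 3 (-1.33, 0.0202), and lower than with compE in the same fits (-1.86 and -1.75, DESeq2 adjusted p = 0.000651 and 0.00122). Either omission leaves the pairing with sample 1 alone, and over the 7 fits the Gas5 value against the washout ran from -1.49 to 0.91. Malat1 was called higher with Fc-JAG1 than in the washout without washout 1 (1.09, DESeq2 adjusted p = 0.0235), with a range of -0.58 to 1.39. Neat1 was called higher with Fc-JAG1 without Fc-JAG1 1 (9.36 against the washout, DESeq2 adjusted p = 0.0393, and 0.0497 against compE), when the library at 0 is the only partner left. A fit without an Fc-JAG1 library has 1 sample in that arm, which is assumed to vary like the other groups.

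**Figure D5:**
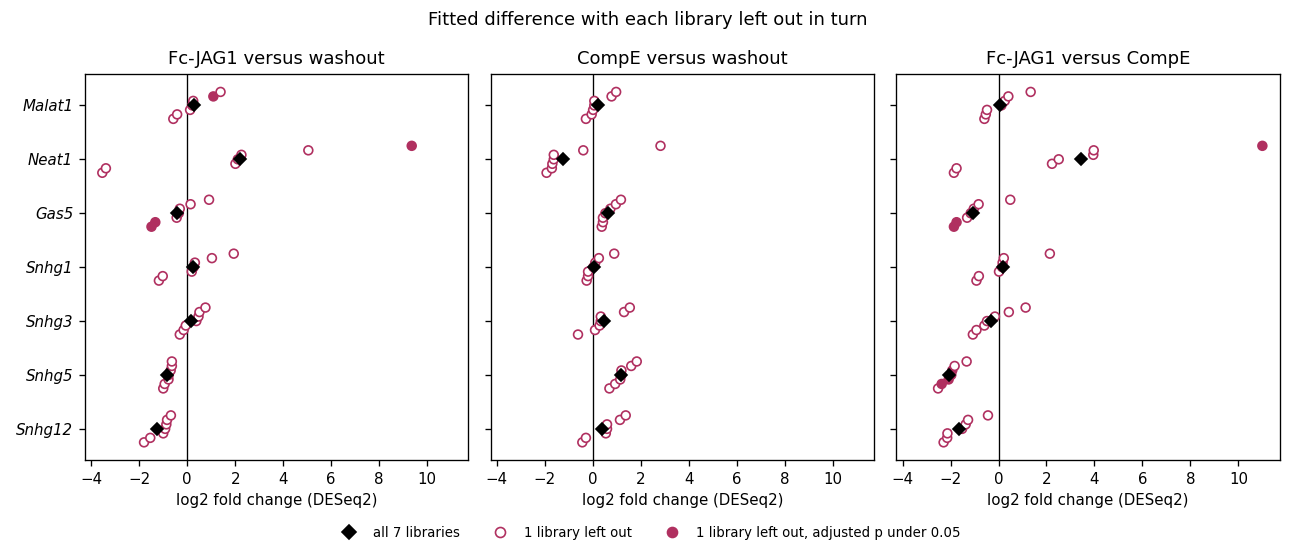
DESeq2 log2 fold change of each lncRNA with all 7 libraries (black diamonds) and with each left out in turn (circles, filled where the adjusted p is under 0.05). The x axis is the log2 fold change. Snhg5 stays below 0 in the comparison of Fc-JAG1 with compE, Gas5 and Malat1 cross 0 with Fc-JAG1 against the washout, and Neat1 runs from -3.54 to 9.36 there.

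Over the 7 libraries the lncRNAs did not follow one pattern. The Pearson correlation of log2 CPM (n = 7 libraries, sharing depth and scaling) was highest for Neat1 with Snhg1 at 0.77 and for Snhg5 with Snhg12 at 0.67, and lowest for Malat1 with Snhg12 at -0.78. Single libraries weigh on these values. Neat1 and Snhg1 were both lowest in washout 3, where Neat1 had 0 counts. Snhg5 and Snhg12 were both highest in compE 1, and Fc-JAG1 3 held the highest Malat1 and the lowest Snhg12. Malat1 and Neat1, neighbours on the chromosome, had -0.35, and Snhg3 and Snhg12, 36989 bases apart, had 0.37. The genes whose log2 CPM went most like Malat1, among the 3035 with 10 counts everywhere, were Ccdc12 (r = 0.958), the blood transcription factor Runx1 (0.953) and Hirip3 (0.952). Those most like Gas5 were Pip4k2a (0.964), Slc39a1 (0.958) and Eipr1 (0.927). Neat1 was most like Pdzd8 (0.975), Prrc2b (0.975) and Prpf39 (0.969), genes with 441, 574 and 48 counts in washout 3. Snhg1 was most like Rnf14 (0.985), Erp44 (0.982) and Pfas (0.981), Snhg3 like Gm4366 (0.965), Nrros (0.964) and Lrmp (0.949), Snhg5 like Grid1 (0.967), Dcc (0.954) and Rbms3 (0.951), and Snhg12 like Lars (0.966), Ptafr (0.939) and Uqcrc2 (0.931). The genes most like Snhg5 had at most 418 counts in 6 libraries and 257 to 3010 in compE 1, so their likeness rests on that library. Ccdc12, Runx1 and Hirip3 had their highest counts in Fc-JAG1 3, as Malat1 did. Rnf14, Erp44 and Pfas had their lowest in washout 3 (12, 532 and 2186), as Snhg1 did. All these genes were picked from the 3035 for the highest correlations over 7 libraries, and no likeness was tested.

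Near genes gave a mixed picture. Snhg1 and Slc3a2, the heavy chain of a pair of amino acid transporters, start 105 bases apart in opposite directions, and Slc3a2 was at 711, 457 and 401 CPM in the washout, 677 and 476 with compE and 557 and 599 with Fc-JAG1. Its correlation with Snhg1 over the libraries was 0.91, and like Snhg1 it was lowest in washout 3 and highest in washout 1. The genes most like Snhg1 (Rnf14, Erp44 and Pfas) had higher correlations, 0.981 to 0.985. Whether Snhg1 and Slc3a2 share control was not tested. Rcc1, which takes up most of Snhg3, had 0.26 with it, and Trnau1ap, 738 bases from Snhg12, -0.38. Zbtb37, which overlaps the start of Gas5, was at 0 to 23.3 CPM and had -0.86.

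Other snoRNA-host lncRNAs were less evenly detected. Of 17 listed, 14 were in the table under those names and 10 were tested, of which 4 had at least 10 counts in every library, against 6 of the 7 described here and 21 of 22 protein-coding hosts such as Rack1 (24355 to 33316 counts) and Eef2 (31483 to 75333). Their median log2 CPM was 4.82, lower than the 8.37 of the 7 and the 8.12 of the protein-coding hosts. The 7 and the lists were chosen with earlier results of these data known. The contrast in level and detection is therefore a description and no test. Zfas1 was even, with 3048 to 13466 counts, but Dancr had 1736 to 4818 counts in 5 libraries, 4 in compE 1 and 0 in Fc-JAG1 3, and Snhg11 had 4022 in Fc-JAG1 3 and at most 3 in the others. edgeR called none of them in any comparison, with 0 at an unadjusted p under 0.05. DESeq2 called Epb41l4aos higher with Fc-JAG1 than in the washout (log2 fold change 6.51, SE 2.50, adjusted p = 0.0458) and Snhg17 lower with compE (-7.10, SE 2.35, DESeq2 adjusted p = 0.0327). Both rest on a single zero: Epb41l4aos had 0 counts in washout 3 and 473 or more in the others, and Snhg17 had 0 in compE 1 and 2243 or more in the others. Without washout 3 Epb41l4aos was at -0.23 and not called (DESeq2 adjusted p = 0.929), nor was it without Fc-JAG1 3 (0.983), and without compE 1 Snhg17 was at -0.16 (1). The median log2 fold change of the 10 in edgeR was 0.05 with Fc-JAG1 and 0.49 with compE against the washout, and 0.53 between the treatments. Over all tested genes these medians were 0.76, -0.14 and 0.65.

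Among 14 other tested lncRNAs of 22 listed, 3 had 10 counts in every library. H19, the imprinted maternal lncRNA, had 4888, 870 and 2 counts in the washout and 0 in all 4 treated libraries, and DESeq2 called it lower with Fc-JAG1 (adjusted p = 0.0132) and with compE (adjusted p = 0.00315). These calls of H19 were lost without Fc-JAG1 1 (log2 fold change -3.08 in DESeq2) and without compE 1 (-12.32), respectively. Without washout 1 or washout 2, H19 did not pass the count filter and was not tested. Meg3, the maternal lncRNA of another imprinted cluster, had 3115 and 403 counts with compE, 0, 130 and 0 in the washout and 0 in both Fc-JAG1 libraries, and was called higher with compE than in the washout (DESeq2 adjusted p = 0.0138) and lower with Fc-JAG1 than with compE (0.0204). Meg3 lost the first call without washout 1 or washout 3 (DESeq2 adjusted p = 0.353 and 0.0737). It also lost that call without Fc-JAG1 1 or Fc-JAG1 3 (log2 fold change 7.06 and 7.10 in DESeq2), and the second without Fc-JAG1 1 (-6.70). Without compE 1 or compE 2, Meg3 did not pass the count filter and was not tested. With Fc-JAG1 against the washout DESeq2 called 2 of the 14 higher, Airn and Dleu2, and 1 lower, and with compE 3 higher, Meg3, Firre and Dleu2, and 2 lower, H19 and Mir17hg, where it called 20.4% and 9.33% of all tested genes. Mir17hg, the host of a microRNA cluster, had 35 counts in compE 1 and 1185 or more in the others, and lost its call without that library (adjusted p = 1 in DESeq2). Airn, Dleu2 and Firre each lost theirs in some fit without a library. edgeR called none, and 1 of the 14 had an unadjusted p under 0.05, with compE. The medians in edgeR were 0.31, 0.05 and 0.14 in the 3 comparisons, against 0.76, -0.14 and 0.65 over all tested genes. Xist and Kcnq1ot1 were at 0 in every library and have no base outside other genes. Miat and Hotairm1 were at 0 in every library too, but have 2233 and 3361 bases outside other genes.

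The proteins that work with these RNAs were mostly detected. Their DESeq2 calls are to be read against the 20.4% of all tested genes called with Fc-JAG1, 9.33% with compE and 11.4% between the treatments. Likewise, the edgeR medians of these lists and of those that follow are to be read against 0.76, -0.14 and 0.65 over all tested genes. For 8 tested paraspeckle proteins, partners of Neat1, the edgeR medians were 0.11 with Fc-JAG1, 0.15 with compE and -0.37 between the treatments, and DESeq2 called Nudt21 higher with each treatment (0 counts in washout 1 and 3) and Cpsf6 lower with Fc-JAG1 (log2 fold change -2.31, adjusted p = 0.03). Nono and Sfpq, the core pair of the paraspeckle, had 3110 to 12548 and 6784 to 17435 counts and were not called. Of 8 tested nuclear speckle proteins, which meet Malat1, DESeq2 called Rnps1 with Fc-JAG1 (2 counts in washout 3) and none with compE, with edgeR medians of 0.79, 0.44 and 0.32. Srsf2 and Rbm14, at 0 everywhere, have 0 and 22 bases outside other genes.

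Of 11 snoRNP proteins, DESeq2 called Shq1 with Fc-JAG1 and no other, and the edgeR medians were -0.13, 0.13 and 0.73. The methylase Fbl had 0 counts in washout 1 and 1641 to 3354 in the others. Of 22 protein-coding snoRNA hosts DESeq2 called Eif4a2 higher with compE (387 to 9437 counts in the washout, 16382 and 19172 with compE, adjusted p = 0.047) and no other, with medians of -0.16, 0.15 and 0.07. Of 14 nonsense-mediated decay factors, which remove Gas5 and other host transcripts, DESeq2 called Smg9 higher and Upf3b lower with Fc-JAG1, Upf3a higher and Smg8 lower with compE and Smg9 higher in Fc-JAG1 than in compE, with medians of 0.73, 0.24 and -0.01. Upf1, the central helicase, had 20 counts in washout 3 and 1670 to 5390 in the others. edgeR called no gene of these lists, with 1 unadjusted p under 0.05 among them (Eef2, between the treatments), and Eif4a2, Nudt21, Rnps1, Shq1, Smg8, Smg9, Upf3a, Upf3b and Cpsf6 each lost their DESeq2 call in at least 1 fit that left out a library.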

How the data were processed

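Nuclear RNA labelled with EU over 4 h was captured, pre-amplified and sequenced as single reads. Per the submitters' notes, the authors used cutadapt 4.2, STAR 2.7.8, featureCounts (Subread 2.0.1) and DESeq2 1.38.3 on mm10 (GRCm38). The deposited raw counts are whole reads per gene without normalization (55487 genes). The deposited filtered counts hold, with their raw values, the 10311 genes that reached 10 counts in 2 or more replicates of a condition. The deposited log2 values are the authors' variance-stabilizing transformation, and they were printed but not tested. Libraries were grouped by their labels.

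Symbols came from GENCODE M21 on the same build (55227 identifiers, 260 unnamed), another release than that of the authors (Ensembl). Sequences came from GENCODE transcripts and RefSeq promoters. RefSeq promoters were matched for 6 of the 7 genes.

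Groups were compared with edgeR 4.0.16 in R 4.3.3 (quasi-likelihood test, TMM, terms for sample number and condition, all 7 libraries, Benjamini-Hochberg over 10311 genes, threshold 0.05, at least 10 counts in 2 replicates of either group compared). SE is the log2 fold change divided by the root of F. log2 CPM used a prior count of 2. The number pairs libraries by the labels and the study's methods. Same-numbered libraries deviated from their group means with correlations of -0.0854 to 0.0915 over 5 pairs. The labels give each replicate as a numbered embryo, whereas the study describes 3 independent experiments on cells from pooled embryos. With 2 or 3 libraries a group, p-values rest on few libraries. Alternatives were DESeq2 1.42.0 (Wald test), fits without the block, other scalings, no filter and leaving out each library. Scripts were tested on simulated data. Figures were drawn with matplotlib 3.10.9.

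The 7 genes, the lists (other host lncRNAs, other lncRNAs, protein-coding hosts, paraspeckle, nuclear speckle and snoRNP proteins, decay factors and cell markers) and the tests were chosen with earlier results of these data known. Genes of a list are named where edgeR or DESeq2 called them or where they had the smallest p; Zfas1, Snhg11, Rack1, Fbl, Upf1, Nono, Sfpq and the genes at 0 were named after their values were seen. For each of the 7, the 3 genes with the highest correlation are named.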

Additional observations from a re-analysis of the deposited data

How the results depend on the processing

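With edgeR, 0 of 10311 genes were called in each comparison. Alternatives changed both the number of calls and the fitted values of the 7 lncRNAs. For Fc-JAG1 against the washout, compE against the washout and Fc-JAG1 against compE, the calls were 2108, 962 and 1175 with DESeq2, 388, 325 and 190 with DESeq2 and no replicate block, and 3, 1 and 3 with edgeR and no filter on low counts. Leaving out 1 library, with either tool, gave 0 to 3000, 0 to 2430 and 0 to 2024. Of 420 values of the 7 lncRNAs under alternatives, 343 kept their direction and their side of the threshold, 11 passed the threshold (all in DESeq2 with 1 library left out) and 66 changed sign, of which 57 with 1 library left out. None was called by edgeR. With all libraries, the changes of sign were Neat1 with no replicate block (-2.77 and -1.45 for Fc-JAG1 against the washout and compE in edgeR, -3.40 and -1.62 in DESeq2), Gas5 with Fc-JAG1 against the washout (0.27 with no replicate block, 0.09 with DESeq2 and no replicate block, 0.20 with total counts), Malat1 with compE (-0.26 with DESeq2 and no replicate block) and Snhg3 between the treatments (0.17 with total counts). The cause was not tested. The block changed no call of the 7, and without it edgeR also called 0 genes in each comparison.

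With 1 library left out, log2 fold changes that changed sign ran, for Fc-JAG1 against the washout, from -0.58 to 1.57 for Malat1, -3.54 to 9.92 for Neat1, -1.49 to 1.08 for Gas5, -1.18 to 2.12 for Snhg1 and -0.31 to 0.93 for Snhg3. For compE against the washout they ran from -0.29 to 0.97 for Malat1, -1.93 to 2.82 for Neat1, -0.26 to 0.89 for Snhg1, -0.62 to 1.68 for Snhg3 and -0.44 to 1.46 for Snhg12. For Fc-JAG1 against compE they ran from -0.59 to 1.35 for Malat1, -1.86 to 11.39 for Neat1, -1.86 to 0.50 for Gas5, -0.92 to 2.16 for Snhg1 and -1.07 to 1.51 for Snhg3. Snhg5 kept its sign in every fit and comparison. Reads were not scarce, since 6 of the 7 had at least 299 counts in every library, but amplified reads do not show how many molecules were captured. The common dispersion of edgeR, its measure of spread between libraries, was 2.42.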
